A study of Mus musculus with 12 samples.

Results

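The 10 genes described here encode alcohol and aldehyde dehydrogenases, namely *Adh1*, *Adh4*, *Adh5*, *Adh7*, *Aldh1a1*, *Aldh1a7*, *Aldh1b1*, *Aldh2*, *Aldh3a2* and *Aldh1l1*. They were taken by symbol from the 38926 gene symbols counted in mouse liver, and all 10 had enough reads to be among the 14488 genes tested. Poly(A) RNA of 12 livers was sequenced, with 3 libraries in each of 4 groups. The groups were wild-type and *Rev-erbα-/-* mice (labelled WT and Rev KO) at ZT8 and at ZT20, where ZT is zeitgeber time in hours after lights on. The *Rev-erbα-/-* mice lack a functional *Nr1d1* gene, which encodes the nuclear receptor and transcriptional repressor REV-ERBα, in every tissue. All animals were 12 weeks old and on the mixed 129Ola/C57BL6 background, and the labels name no other allele and no agent for any group. The comparisons ask how the loss of REV-ERBα alters liver transcripts at a time when the receptor is normally abundant (ZT8) and at a time when it is scarce (ZT20).

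Alcohol dehydrogenases (ADH) oxidise alcohols to aldehydes, and aldehyde dehydrogenases (ALDH) oxidise aldehydes to acids, both with a nicotinamide cofactor. In hepatocytes, this pair of steps converts ethanol to acetaldehyde and then to acetate, and retinol to retinaldehyde and then to retinoic acid. Members of both families also remove formaldehyde, aldehydes from lipid peroxidation, and fatty aldehydes.

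The 4 *Adh* genes lie in 1 cluster on chromosome 3 of mm10 and are all transcribed from the plus strand. Within this cluster, *Adh7* (138217760 to 138233382) and *Adh1* (138260991 to 138290698) are followed by *Adh6a*, *Adh6b* and *Adh6-ps1*, and then by *Adh4* (138415466 to 138430892) and *Adh5* (138443093 to 138455499). *Aldh1a1* (20492715 to 20643465, plus strand) and *Aldh1a7* (20692953 to 20727562, minus strand) are neighbours on chromosome 19. The remaining members are single genes, *Aldh1b1* on chromosome 4 (45799022 to 45804604), *Aldh2* on chromosome 5 (121566027 to 121593824), *Aldh1l1* on chromosome 6 (90486427 to 90600203) and *Aldh3a2* on chromosome 11 (61223417 to 61267464). The exons of *Aldh1b1* form only 2 blocks, whereas those of the other members form between 8 and 25.

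The sequences upstream of *Adh1* and *Aldh1b1* are shown because these were the members whose genotype effect was called as different between the time points, and that of *Adh4* because, of the sequences found, it alone held the core of a REV-ERBα response element. Each is the 250 bases before the RefSeq start site (GRCm38.p6, the same build as mm10), written 5′ to 3′ on the strand of the gene, with a matching motif in capitals. The coordinates are chr3:138277335-138277584 (+) for *Adh1*, chr3:138415247-138415496 (+) for *Adh4* and chr4:45798772-45799021 (+) for *Aldh1b1*.
Adh1: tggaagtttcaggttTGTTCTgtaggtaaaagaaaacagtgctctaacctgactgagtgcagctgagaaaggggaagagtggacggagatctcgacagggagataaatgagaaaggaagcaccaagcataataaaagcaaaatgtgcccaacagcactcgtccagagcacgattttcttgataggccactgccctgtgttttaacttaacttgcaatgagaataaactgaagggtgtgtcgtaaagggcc
Adh4: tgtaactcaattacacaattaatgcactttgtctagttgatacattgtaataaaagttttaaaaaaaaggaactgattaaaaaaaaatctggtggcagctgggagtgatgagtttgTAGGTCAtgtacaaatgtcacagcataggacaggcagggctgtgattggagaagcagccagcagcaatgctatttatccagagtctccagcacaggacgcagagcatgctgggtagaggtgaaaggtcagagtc
Aldh1b1: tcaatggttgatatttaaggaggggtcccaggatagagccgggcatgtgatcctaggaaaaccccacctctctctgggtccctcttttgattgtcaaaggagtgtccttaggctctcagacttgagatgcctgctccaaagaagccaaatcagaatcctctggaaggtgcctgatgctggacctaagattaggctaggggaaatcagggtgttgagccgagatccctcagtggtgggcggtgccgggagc
In *Adh1*, the capitals mark the letters AGAACA, one arm of a glucocorticoid response element (here as TGTTCT on the plus strand) at position -235 from the start. In *Adh4*, they mark the response element core TAGGTCA at position -134. The search covered both strands for the E-box CACGTG, the response element core (TAGGTCA or TGGGTCA) and the arm AGAACA, and none of these was found upstream of *Aldh1b1*. Upstream sequences were found for 9 members with 11 start sites, and the only other match was an E-box at position -30 of *Aldh3a2*. *Aldh2* had no entry. Of all 32851 such sequences, 16.1% held AGAACA, 6.02% the E-box and 5.38% the response element core.

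*Aldh1a1* and *Aldh1a7* are close copies of each other, and their upstream sequences are shown to make this visible. Capitals mark the longest run that they share, of 65 bases between positions -94 and -30. The coordinates are chr19:20601718-20601967 (+) for the second of the *Aldh1a1* start sites and chr19:20727557-20727806 (-) for *Aldh1a7*.
Aldh1a1: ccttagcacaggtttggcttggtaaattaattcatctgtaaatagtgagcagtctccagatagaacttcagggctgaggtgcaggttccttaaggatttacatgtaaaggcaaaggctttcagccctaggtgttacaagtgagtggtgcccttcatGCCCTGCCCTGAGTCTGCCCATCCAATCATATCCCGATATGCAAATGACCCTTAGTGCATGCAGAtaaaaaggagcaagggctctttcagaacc
Aldh1a7: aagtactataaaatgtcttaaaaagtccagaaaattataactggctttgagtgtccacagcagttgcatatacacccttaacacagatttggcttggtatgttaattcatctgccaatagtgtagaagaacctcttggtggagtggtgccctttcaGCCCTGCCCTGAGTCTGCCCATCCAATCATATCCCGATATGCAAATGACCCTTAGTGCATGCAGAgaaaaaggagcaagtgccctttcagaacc
The best local alignment of these stretches covered 110 bases at 94.5% identity. The longest coding transcripts of the genes were 89.5% identical over 2017 aligned bases. This bears on the counts, because reads that align equally well to several places were not counted. Reads were at most 75 bases long, and 50 of the 1992 windows of this length in *Aldh1a7* transcripts (2.51%) also occurred in *Aldh1a1*. For *Aldh1l1*, 31 of 4651 windows (0.667%) were shared, all with the overlapping non-coding gene *Gm45901*. The other 7 members shared none with annotated transcripts read in the direction of transcription, and the opposite strand was not searched. Counting ignored the strand, and a read on exons of several annotated genes was set aside as ambiguous. Reads in short antisense overlaps were therefore left out where the annotation used for counting held both genes. These overlaps covered 6.09% of the exon bases of *Adh1*, 2.85% of *Adh7*, 2.54% of *Aldh2* and 11% of *Aldh1l1*. The overlap with *Gm45901*, on the same strand, covered 2.33% of *Aldh1l1*.

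Between 17641809 and 26060192 reads per library were counted on genes, and the 10 members took between 0.573% and 0.895% of them. Levels are given as CPM, the counts of a gene divided by the TMM-scaled library size, and a count of 3 was worth 0.117 to 0.167 CPM. Reads were still counted on the *Nr1d1* symbol in *Rev-erbα-/-* livers at ZT8 (62.99, 71.89 and 80.55 CPM against 128.7, 96.15 and 75.34 in wild-type), so that its count did not check the deletion. The genotype was visible in *Arntl*, a clock gene repressed by REV-ERBα, which was at 0.4484 to 0.7959 CPM in wild-type and at 22.67 to 25.72 CPM in *Rev-erbα-/-* livers at ZT8. Its log2 fold change was 5.18 (SE 0.133, adjusted p = 2.23e-12). The summed level of 8 hepatocyte markers, led by albumin, ranged from 63400 to 84000 CPM in wild-type and from 71100 to 99000 CPM in *Rev-erbα-/-* livers at ZT8. At ZT20, it ranged from 107000 to 118000 CPM and from 97400 to 105000 CPM. In whole liver, fewer cells of a type and less RNA per cell cannot be told apart.

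The wild-type livers at ZT8 did not form a uniform group. *Saa1*, an acute-phase gene of hepatocytes, was at 60.77 CPM in replicate 1, 4972 CPM in replicate 2 and 6489 CPM in replicate 3, while no liver of the other groups exceeded 96.8 CPM. Of the 10 members, 9 were highest in the liver with the least *Saa1* and lowest in the liver with the most, an order seen in 25.2% of all genes tested. The exception was *Adh7*. The spread was largest for *Aldh3a2* and smallest for *Adh1*. Over the same livers, the hepatocyte markers summed to 84000, 68400 and 63400 CPM. Markers of lymphocytes and neutrophils summed to 15.8, 321 and 409 CPM, nearly all of it from *Lcn2*, since the other 7 genes of this list reached only 12.5, 13.8 and 16.2 CPM. Sums of endothelial (312 to 322 CPM) and stellate cell markers (350 to 420 CPM) stayed within the range of the other groups. Kupffer cell markers summed to 378 to 588 CPM (at most 475 in the other groups). Cholangiocyte markers summed to 38 to 94.7 CPM (at most 69.8), and pericentral hepatocyte markers to 2590 to 3880 CPM (at most 3280). Periportal markers summed to 2030 to 2790 CPM (at least 2340 in the other groups). The part of these differences in the comparisons below was not tested, and values without both livers of high *Saa1* are given beside results below and, for changes of sign, with the processing alternatives. Those fits leave 1 wild-type liver at ZT8, which is taken to vary like the other groups.

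**Figure D1:**
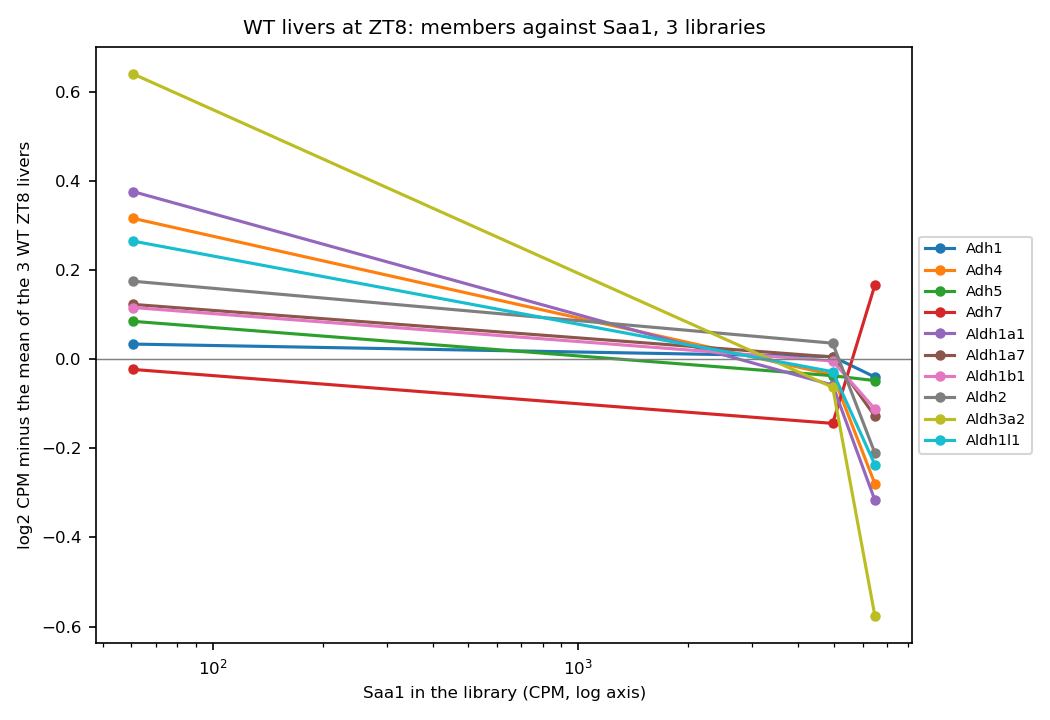
Deviation of each member from its mean over the 3 wild-type livers at ZT8 (y axis, log2 CPM) against the *Saa1* level of the same liver (x axis, CPM, log scale); each line joins the 3 libraries for 1 gene. *Aldh3a2* runs from the highest to the lowest point, *Adh1* and *Adh5* stay closest to 0, and *Adh7* is the only line that ends above its start.

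Per kilobase of exon, *Adh1* was the most abundant member and *Adh7* the least abundant in each of the 4 groups. The length counted every base in an exon of any annotated transcript of the gene. It was 5619 bases for *Aldh3a2*, 5408 for *Adh5* and 2298 for *Aldh1b1*, against longest coding transcripts of 3091, 1604 and 2298 bases. The order, overlaps and gap given here hold for this length, and whether they hold for transcript lengths was not tested. In wild-type livers at ZT8, *Adh1* was at 635.5 ± 16.3 CPM per kb (SD, n = 3) and *Adh7* at 7.91 ± 0.869. *Aldh2* (319.1 ± 42.3), *Aldh1l1* (284.8 ± 50.4) and *Aldh1a1* (198.6 ± 49.2) came next, and each overlapped its neighbour in this order. Below a gap followed *Aldh1a7* (110.9 ± 9.61), *Adh4* (88.9 ± 18.7) and *Adh5* (78.87 ± 4.1), which overlapped likewise. *Aldh3a2* (38.41 ± 16.4) and *Aldh1b1* (30.16 ± 2.39) also overlapped each other and lay above *Adh7*. The order of *Aldh3a2* and *Aldh1b1* was turned in *Rev-erbα-/-* livers at ZT8 (26.59 ± 2.33 and 33.36 ± 1.28), and that of *Aldh2* and *Aldh1l1* in *Rev-erbα-/-* livers at ZT20 (362.1 ± 24.8 and 366.6 ± 32.4, overlapping). The other neighbours kept the order given for wild-type livers at ZT8.

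**Figure D2:**
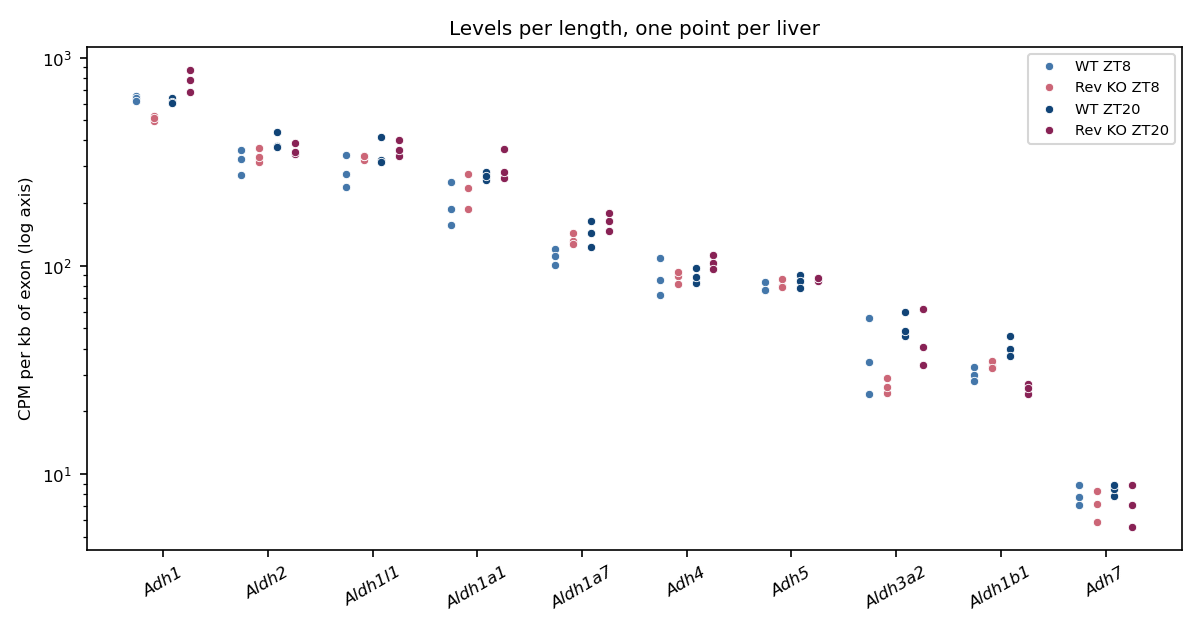
Level of each member per length (y axis, CPM per kb of exon, log scale), with 1 point for each liver and colours for the 4 groups. *Adh1* lies above all other members and *Adh7* below them in every group, with *Adh7* between 5.564 and 8.867 CPM per kb.

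Members that passed the test for an effect of the genotype are counted beside all genes tested, and a difference between these shares was not tested. At ZT8, edgeR's quasi-likelihood test with Benjamini-Hochberg adjustment called 0 of 10 members, beside 8.45% of all genes tested (4.4% higher and 4.04% lower in *Rev-erbα-/-*). At an unadjusted p below 0.05, it called 2 (*Adh1* and *Aldh1a7*), a criterion for which the share of all genes was not counted. DESeq2 called 1 (*Adh1*), beside 1482 of the 38926 symbols. The log2 fold changes of the members ranged from -0.53 (*Aldh3a2*) to 0.27 (*Aldh1a7*) with a median of 0.07, against 0.002 for all genes. Without both wild-type ZT8 livers of high *Saa1*, the median was -0.099, 8 of 10 members were below 0 and the lowest value was -1.088, whereas without replicate 1, the liver of low *Saa1*, the median was 0.169. At ZT20, 1 of 10 members passed, *Aldh1b1*, which was lower, beside 3.63% of all genes (2.09% higher and 1.54% lower). The median of the members was 0.046, against -0.001 for all genes. The genotype effect differed between ZT8 and ZT20 for 2 of 10 members, *Adh1* and *Aldh1b1*, beside 5.88% of all genes (3.05% with a more positive effect at ZT8 and 2.83% with a more negative effect). The median difference turned from 0.07 to -0.088 without both livers of high *Saa1*, where *Adh1* and *Aldh1b1* still passed.

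**Figure D3:**
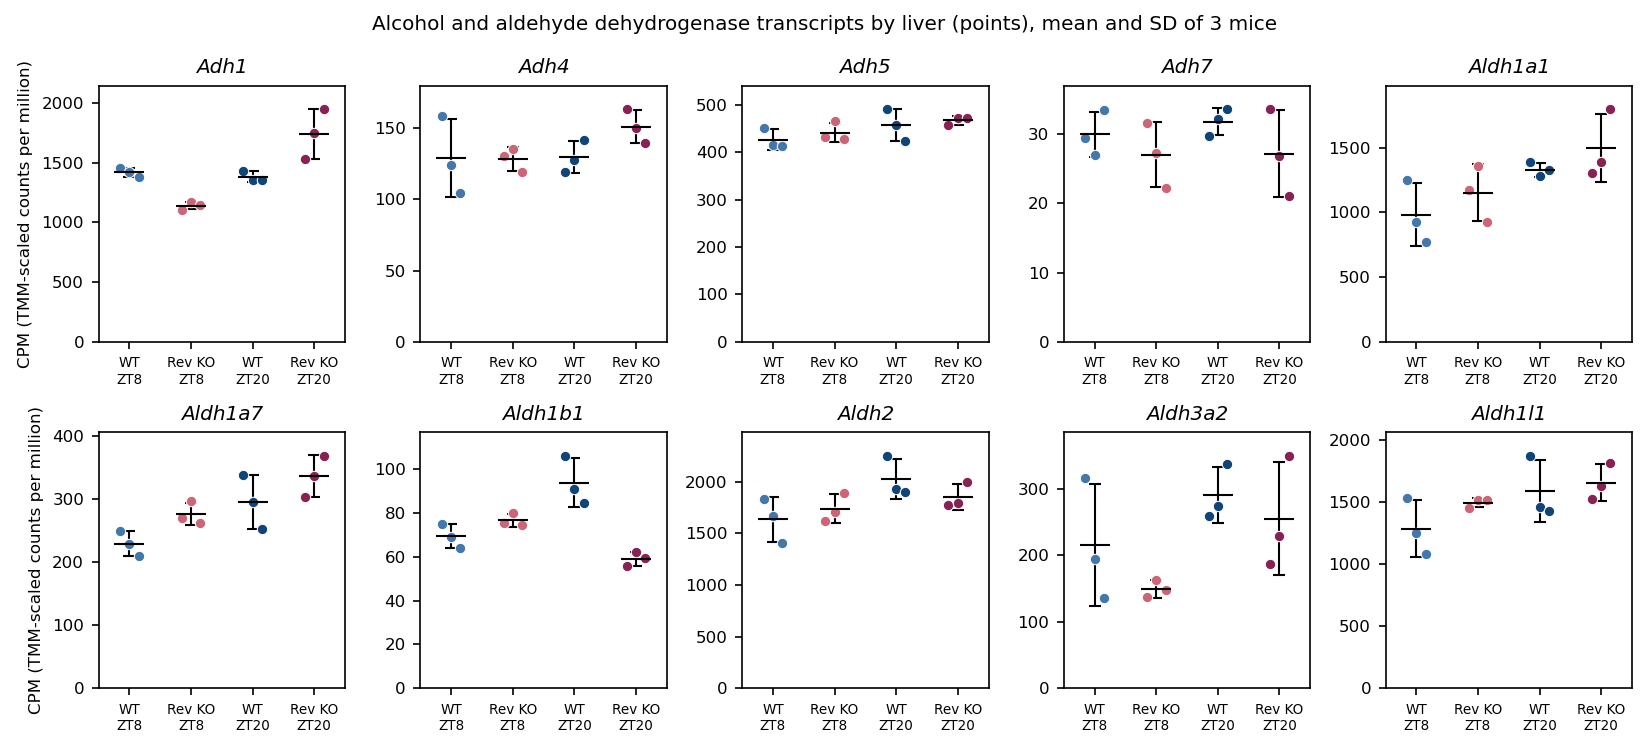
Level of each member (y axis, CPM, from 0) in the 4 groups, with 1 point for each library and the mean and SD of 3 libraries in black. For *Adh1*, the *Rev-erbα-/-* points lie below those of wild-type at ZT8 (mean 1140 against 1419 CPM) and above them at ZT20, and for *Aldh1b1* they lie below them at ZT20 (59.19 against 93.89 CPM).

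*Adh1* encodes the class I enzyme that carries out most of the oxidation of ethanol in liver. In wild-type livers, it was at 1452, 1425 and 1380 CPM at ZT8 and at 1434, 1358 and 1354 CPM at ZT20. In *Rev-erbα-/-* livers, it was at 1107, 1168 and 1145 CPM at ZT8 and at 1531, 1745 and 1948 CPM at ZT20. Wild-type levels at the 2 time points overlapped, whereas the *Rev-erbα-/-* livers lay below all of them at ZT8 and above all of them at ZT20. From ZT8 to ZT20, *Adh1* rose 1.53-fold in *Rev-erbα-/-* livers (log2 fold change 0.61, SE 0.0994, edgeR adjusted p = 0.000711), and in wild-type livers the change was -0.04 (SE 0.099, adjusted p = 0.814). The difference between these time effects is the same contrast as the difference between the genotype effects, which amounted to -0.65 (SE 0.14, adjusted p = 0.012). The single genotype comparisons on which it rests did not pass the threshold (adjusted p = 0.0622 at ZT8 and 0.0875 at ZT20), although the genotypes did not overlap at either time. Without both wild-type ZT8 livers of high *Saa1*, the effect at ZT8 was -0.35 (adjusted p = 0.247). The difference between the effects passed in 19 of 20 alternatives and missed only a threshold of 0.01.

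*Aldh1b1*, which encodes a mitochondrial aldehyde dehydrogenase related to ALDH2, differed between the times in the other direction. In wild-type livers, it was at 74.97, 68.95 and 64.01 CPM at ZT8 and at 106.1, 91.15 and 84.41 CPM at ZT20. In *Rev-erbα-/-* livers, it was at 75.51, 80 and 74.48 CPM at ZT8 and at 55.91, 62.3 and 59.35 CPM at ZT20. Thus, wild-type livers were higher at ZT20 than at ZT8 without overlap, *Rev-erbα-/-* livers were lower at ZT20 without overlap, and the genotypes overlapped only at ZT8. At ZT20, *Aldh1b1* was 1.59-fold lower in *Rev-erbα-/-* livers (log2 fold change -0.67, SE 0.0869, edgeR adjusted p = 0.000334), and at ZT8 the effect was 0.14 (SE 0.0869, adjusted p = 0.339), or 0.028 without both livers of high *Saa1*. The difference between the effects was 0.81 (SE 0.123, adjusted p = 0.000996). From ZT8 to ZT20, *Aldh1b1* rose in wild-type (log2 fold change 0.44, SE 0.0867, adjusted p = 0.00158) and fell in *Rev-erbα-/-* livers (-0.37, SE 0.0871, adjusted p = 0.00835). The lower level at ZT20 was called in each of 21 alternatives, with log2 fold changes between -0.73 and -0.57 when single libraries were left out. The rise in wild-type was lost only without both ZT8 livers of high *Saa1* (0.32, adjusted p = 0.113).

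**Figure D4:**
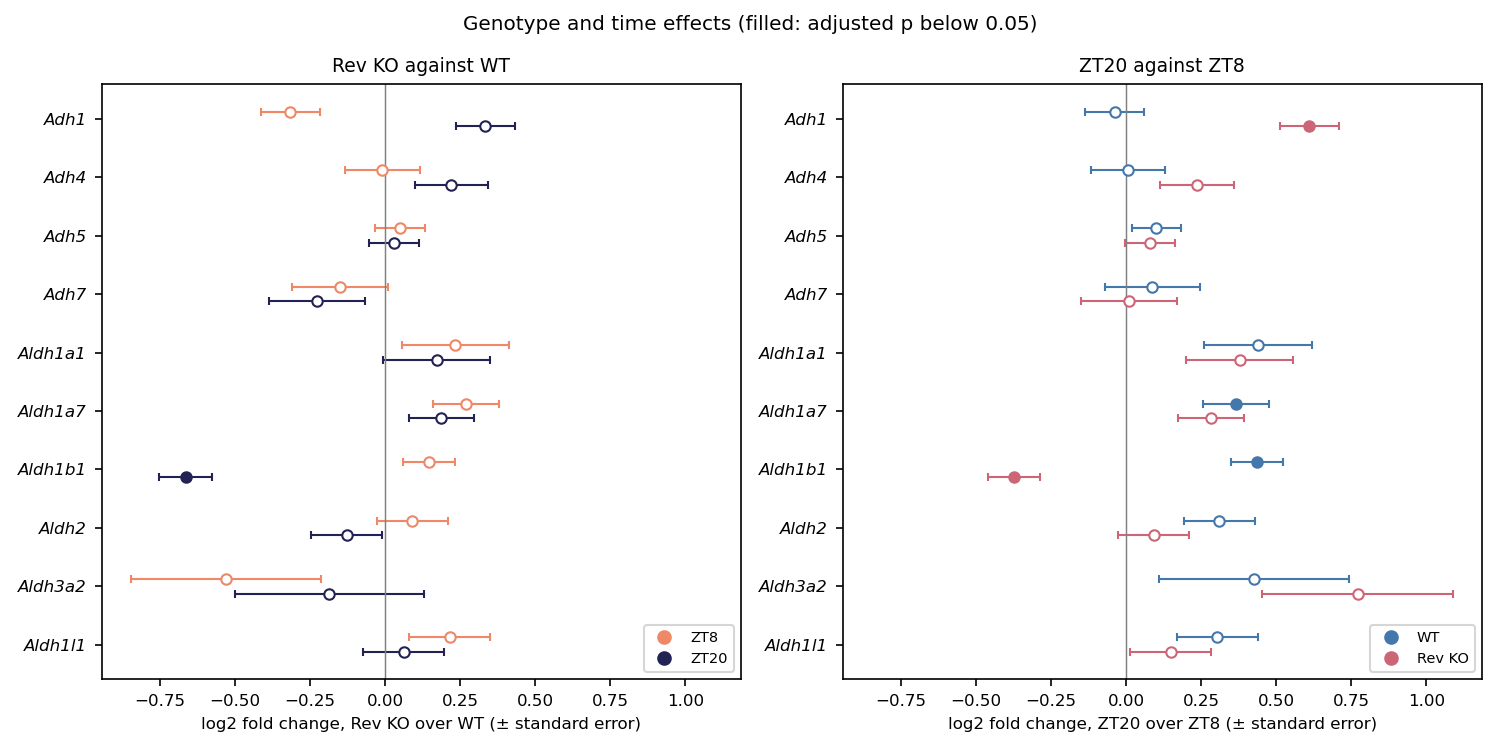
Log2 fold change of each member with its standard error, for *Rev-erbα-/-* over wild-type at ZT8 and ZT20 (left) and for ZT20 over ZT8 in each genotype (right); filled points passed an adjusted p of 0.05. *Aldh1b1* at ZT20 is the only filled point on the left (-0.67), and on the right *Adh1* is filled in *Rev-erbα-/-* (0.61), *Aldh1a7* in wild-type (0.37) and *Aldh1b1* in both genotypes with opposite signs.

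Between the time points, 9 of 10 members had a positive log2 fold change (higher at ZT20) in wild-type livers and 9 of 10 in *Rev-erbα-/-* livers, with medians of 0.307 and 0.192 against 0 and 0.006 for all genes. In wild-type, 2 members rose (*Aldh1a7* and *Aldh1b1*) and 0 fell, beside 27.7% of all genes tested (13.8% higher and 13.9% lower at ZT20). With total counts in place of TMM scaling, the share of higher genes among those called in wild-type was 36.2%, against 49.9%. DESeq2 called 4 members in wild-type, with *Aldh1a1* and *Aldh2* in addition, beside 3916 of the 38926 symbols. That base includes symbols without any read, so it cannot be set against the 27.7% by edgeR. Without both ZT8 livers of high *Saa1*, the 2 calls in wild-type were lost, and fewer genes passed over all genes too. In that fit, 7 of 10 members had a positive value and the median was 0.067, against 0.005 for all genes. Without replicate 1, the liver of low *Saa1*, 5 passed, beside 4195 of 14718 genes tested, and the median was 0.405. In *Rev-erbα-/-* livers, *Adh1* rose and *Aldh1b1* fell, beside 17.5% of all genes (8.79% higher and 8.67% lower).

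*Aldh1a1* and *Aldh1a7* encode cytosolic enzymes of the retinaldehyde dehydrogenase subfamily, of which ALDH1A1 makes retinoic acid and *Aldh1a7* is a rodent copy. *Aldh1a1* was at 1247, 922.7 and 771.1 CPM in wild-type livers at ZT8 and at 1386, 1278 and 1325 CPM at ZT20. In *Rev-erbα-/-* livers, it was at 1173, 1361 and 923.3 CPM at ZT8 and at 1305, 1392 and 1796 CPM at ZT20. The genotypes overlapped at both times, and the wild-type time points did not, but the change of 0.44 (SE 0.179) did not pass (adjusted p = 0.0843). It depended on the wild-type ZT8 livers, with 0.64 (adjusted p = 0.00894) without replicate 1 and 0.087 (adjusted p = 0.845) without both livers of high *Saa1*. *Aldh1a7* was at 248.8, 229.3 and 209.1 CPM in wild-type livers at ZT8 and at 337.9, 295.2 and 253 CPM at ZT20. In *Rev-erbα-/-* livers, it was at 270.3, 296.4 and 262.4 CPM at ZT8 and at 302.9, 337.2 and 368.6 CPM at ZT20. Wild-type livers at ZT8 were therefore the lowest of the 4 groups, without overlap with any other. *Aldh1a7* rose 1.29-fold from ZT8 to ZT20 in wild-type (log2 fold change 0.37, SE 0.11, edgeR adjusted p = 0.0214), while the genotype effect at ZT8 (0.27, SE 0.11) did not pass (adjusted p = 0.147). The rise was lost in 7 of 21 alternatives. Among them were the fits without wild-type ZT8 replicate 2 (adjusted p = 0.066) or 3 (0.0882) and without wild-type ZT20 replicate 1 (0.117) or 2 (0.0598). Without both ZT8 livers of high *Saa1*, it was 0.241 (adjusted p = 0.368), and the genotype effect at ZT8 was 0.147 (adjusted p = 0.763).

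*Aldh2*, the mitochondrial enzyme that removes acetaldehyde formed from ethanol, was at 1835, 1667 and 1405 CPM in wild-type and at 1621, 1708 and 1895 CPM in *Rev-erbα-/-* livers at ZT8. At ZT20, it was at 2252, 1929 and 1904 CPM in wild-type and at 1771, 1795 and 2002 CPM in *Rev-erbα-/-* livers. The genotypes overlapped at both times, with log2 fold changes of 0.09 (SE 0.118, adjusted p = 0.702) at ZT8 and -0.13 (SE 0.118, adjusted p = 0.707) at ZT20. Without both wild-type ZT8 livers of high *Saa1*, the former was -0.08 (adjusted p = 0.883). The wild-type time points did not overlap, but the change of 0.31 (SE 0.118) did not pass (adjusted p = 0.064). It passed without replicate 1 of wild-type at ZT8 (0.39, adjusted p = 0.0216) and was 0.138 (adjusted p = 0.628) without both livers of high *Saa1*.

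*Aldh1l1* encodes cytosolic formyltetrahydrofolate dehydrogenase, which releases carbon dioxide from the folate pool. It was at 1530, 1248 and 1080 CPM in wild-type and at 1453, 1517 and 1512 CPM in *Rev-erbα-/-* livers at ZT8, and at 1872, 1462 and 1427 CPM and 1524, 1630 and 1813 CPM at ZT20. All neighbouring groups overlapped except the *Rev-erbα-/-* time points, which differed by 0.15 on the log2 scale (SE 0.135, adjusted p = 0.504). The genotype effects were 0.22 (SE 0.135, adjusted p = 0.361) at ZT8 and 0.06 (SE 0.135, adjusted p = 0.9) at ZT20. The wild-type time effect of 0.30 (SE 0.135, adjusted p = 0.111) passed only without replicate 1 of wild-type at ZT8 (0.44, adjusted p = 0.0171). Without both livers of high *Saa1*, it was 0.047 (adjusted p = 0.898), and the genotype effect at ZT8 was -0.038 (adjusted p = 0.954).

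*Aldh3a2* encodes the fatty aldehyde dehydrogenase of the endoplasmic reticulum. It was at 316.8, 194.5 and 136.1 CPM in wild-type and at 137.3, 163.3 and 147.7 CPM in *Rev-erbα-/-* livers at ZT8. At ZT20, it was at 259.1, 273.5 and 338.1 CPM in wild-type and at 186.8, 228.8 and 349.8 CPM in *Rev-erbα-/-* livers. The only neighbouring groups without overlap were the *Rev-erbα-/-* time points, and their log2 fold change of 0.77 (SE 0.318) did not pass (adjusted p = 0.138). Without both wild-type ZT8 livers of high *Saa1*, it was 0.774 and came to pass narrowly. These livers take no part in this contrast but share the estimate of the spread. The effect of the genotype at ZT8 was -0.53 (SE 0.317, adjusted p = 0.36). It was -0.15 without wild-type replicate 1 and -1.09 (adjusted p = 0.136) without both livers of high *Saa1*, where the wild-type time effect turned from 0.43 (adjusted p = 0.368) to -0.132 (adjusted p = 0.849).

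The other members of the *Adh* cluster passed in none of the 5 comparisons. *Adh4*, a class II enzyme that also oxidises retinol, ranged from 104.6 to 158.1 CPM in wild-type and from 119 to 135.3 CPM in *Rev-erbα-/-* livers at ZT8, and from 119.4 to 141.8 CPM and from 139.7 to 163.1 CPM at ZT20. Only the *Rev-erbα-/-* time points did not overlap (log2 fold change 0.24, SE 0.124, adjusted p = 0.217). Its effect of genotype was -0.009 (SE 0.124, adjusted p = 0.975) at ZT8 and 0.22 (SE 0.123, adjusted p = 0.452) at ZT20. Without both wild-type ZT8 livers of high *Saa1*, the effect at ZT8 was -0.307 (adjusted p = 0.255), the difference between the effects -0.532 (adjusted p = 0.0675) and the wild-type time effect -0.293 (adjusted p = 0.137). *Adh5* encodes the class III enzyme, the glutathione-dependent formaldehyde dehydrogenase. It ranged from 412.2 to 490.8 CPM in wild-type livers over both times and from 427.4 to 472.7 CPM in *Rev-erbα-/-* livers, the groups overlapped in each comparison, and it had the smallest standard errors of the members. Its genotype effects were 0.049 (SE 0.0831, adjusted p = 0.772) at ZT8 and 0.03 (SE 0.083, adjusted p = 0.927) at ZT20. *Adh7* encodes the class IV enzyme, known from stomach and oesophagus. It was nevertheless counted in every liver, at 27 to 33.55 CPM in wild-type and 21.07 to 33.58 CPM in *Rev-erbα-/-* livers over both times, while 6 markers of stomach and oesophagus epithelium (*Krt5*, *Krt13*, *Muc5ac*, *Gkn1*, *Gif* and *Pgc*) were at 0 in all libraries. Its genotype effects were -0.15 (SE 0.161, adjusted p = 0.627) and -0.23 (SE 0.159, adjusted p = 0.582).

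Genes of the surrounding pathways were read from lists, each beside the percentages of all genes given above, which are for edgeR after adjustment. Of the 38926 symbols, DESeq2 called 1482 at ZT8, 674 at ZT20 and 1085 for the difference. For time, it called 3916 in wild-type and 2573 in *Rev-erbα-/-*. These symbols include those without any read, so shares of them cannot be set against the edgeR percentages. The share of all genes at an unadjusted p below 0.05 was not counted, so the unadjusted counts have no such value beside them. Of 18 other *Adh* and *Aldh* genes, 12 were tested, and 1 passed at each time, *Aldh16a1*, a dehydrogenase-like family member. It was higher in *Rev-erbα-/-* livers at ZT8 (78.94 to 87.8 against 62.48 to 70.15 CPM, log2 fold change 0.31, SE 0.0817, adjusted p = 0.0308) and at ZT20 (80.65 to 90.56 against 56.7 to 68.61 CPM, 0.45, SE 0.0816, adjusted p = 0.00476). The call at ZT8 was lost without wild-type ZT8 replicate 2 (adjusted p = 0.061) or 3 (0.116) and without *Rev-erbα-/-* ZT8 replicate 2 (0.0783) or 3 (0.0835), and without both livers of high *Saa1* the value was 0.28 (adjusted p = 0.311). In wild-type, *Aldh6a1* (0.34, adjusted p = 0.017) and *Aldh9a1* (0.27, adjusted p = 0.0371) rose from ZT8 to ZT20. *Aldh6a1* was lost without wild-type ZT8 replicate 2 (adjusted p = 0.0806) or 3 (0.0566) or ZT20 replicate 1 (0.0658), and *Aldh9a1* in 12 of 21 alternatives. Of these, 7 left out a single library (wild-type ZT8 replicate 2 or 3, any wild-type ZT20 replicate, or *Rev-erbα-/-* replicate 2 at ZT8 or ZT20), with adjusted p between 0.0507 and 0.165. Without both livers of high *Saa1*, *Aldh6a1* was at 0.208 (adjusted p = 0.361) and *Aldh9a1* at 0.08 (adjusted p = 0.699). In *Rev-erbα-/-*, 0 of 12 passed by edgeR or DESeq2 and 3 at an unadjusted p below 0.05. The difference between the genotype effects was called for 0 of 12 by both tools and for 1 without adjustment.

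Of 6 genes of ethanol and acetate handling, 5 were tested, and 0 passed for genotype at either time. At an unadjusted p below 0.05, edgeR called 2 at ZT8 (*Acss2* and *Cyp2e1*, both also called by DESeq2) and 0 at ZT20, where DESeq2 called 0. For the difference between the effects, edgeR called 0, 1 without adjustment, and DESeq2 2. *Acss2*, the cytosolic enzyme that activates acetate, rose from ZT8 to ZT20 in wild-type (106.4 to 187.2 CPM against 435.2 to 819.5 CPM, 4.44-fold, adjusted p = 8.49e-05) and 2.25-fold in *Rev-erbα-/-* livers (adjusted p = 0.00645). *Cyp2e1*, the microsomal ethanol oxidase, fell in both genotypes. In wild-type, it went from between 10080 and 10500 CPM to between 6177 and 6469 CPM (log2 fold change -0.69, adjusted p = 0.000116), and in *Rev-erbα-/-* its change was -0.41 (adjusted p = 0.0103). The latter call was lost without replicate 2 of *Rev-erbα-/-* at ZT8 (adjusted p = 0.057) or ZT20 (0.0581).

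Of 19 genes of retinoid handling, 17 were tested. At ZT8, 1 passed, *Dhrs9*, a short-chain dehydrogenase, which was at 0.4377 to 0.8643 CPM in wild-type and at 2.181 to 4.456 CPM in *Rev-erbα-/-* livers (log2 fold change 2.23, adjusted p = 0.000575). At ZT20, 0 passed by edgeR, 3 at an unadjusted p below 0.05 and 1 by DESeq2. The effect on *Dhrs9* differed between the times by 1.85 (SE 0.418, adjusted p = 0.016). From ZT8 to ZT20, 4 genes rose and 3 fell in wild-type, and 2 rose and 2 fell in *Rev-erbα-/-* livers. Without both livers of high *Saa1*, fewer of these genes passed in wild-type, as was so over all genes. The retinol dehydrogenase genes *Rdh11* (1.58 in wild-type, adjusted p = 0.000226, and 1.08 in *Rev-erbα-/-*, adjusted p = 0.00437) and *Rdh9* (-0.83, adjusted p = 0.00267, and -1.29, adjusted p = 0.000277) changed in both genotypes. The wild-type call of *Rdh9* was lost without both livers of high *Saa1* (-0.774, adjusted p = 0.0711).

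Of 13 genes of folate metabolism, 12 were tested. At ZT8, 1 was higher in *Rev-erbα-/-*. *Shmt1*, the cytosolic serine hydroxymethyltransferase, was at 243.3 to 268.9 CPM in wild-type and 292.9 to 336.5 CPM in *Rev-erbα-/-* livers at ZT8 (log2 fold change 0.33, adjusted p = 0.0434). At ZT20, its order was turned (302.9 to 389.1 CPM against 262 to 288.9 CPM, not past the threshold), and the difference between the effects was 0.66 (SE 0.136, adjusted p = 0.00882). The ZT8 call of *Shmt1* was lost in 9 of 21 alternatives. Of these, 6 left out a single library (replicate 2 or 3 of either genotype at ZT8, or replicate 2 of either genotype at ZT20), with adjusted p between 0.0674 and 0.15. Without both livers of high *Saa1*, the effect at ZT8 was 0.252 (adjusted p = 0.478) and the difference 0.575 (adjusted p = 0.0952), and neither passed. At ZT20, 0 of 12 passed by edgeR, 4 at an unadjusted p below 0.05 and 1 by DESeq2. Between the times, 1 rose and 2 fell in wild-type, and 1 rose and 1 fell in *Rev-erbα-/-* livers. Without both livers of high *Saa1*, fewer of these genes passed in wild-type and more in *Rev-erbα-/-*, as was so over all genes.

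Of 16 aldehyde and ketone reductases, 14 were tested, and 0 were called for genotype at either time or for the difference, by edgeR or DESeq2. At an unadjusted p below 0.05, edgeR called 1 at ZT8, 3 at ZT20 and 2 for the difference. Without both livers of high *Saa1*, the calls for the difference changed in this list and also over all genes. Between the times, 3 rose and 2 fell in wild-type, and 1 rose and 1 fell in *Rev-erbα-/-* livers. Carbonyl reductase *Cbr1* rose in both genotypes (0.62 in wild-type, adjusted p = 6.57e-05, and 0.52 in *Rev-erbα-/-*, adjusted p = 0.000698), and *Akr1c6* fell in both (-0.55, adjusted p = 0.00301, and -0.62, adjusted p = 0.00243).

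Over the 12 livers, which share the 4 groups, the genes with a pattern most like that of *Adh1* by Pearson correlation of log2 CPM were *Tead1* (r = 0.951), *Parp3* (r = 0.939), *Pomk* (r = 0.929), *BC002163* (r = 0.922) and *Neil1* (r = 0.918). *Tead1* went from a mean of 7.723 CPM in wild-type to 4.631 CPM in *Rev-erbα-/-* livers at ZT8, and from 7.951 to 12.26 CPM at ZT20. For *Aldh1b1*, which was chosen for this after its values were seen, the most alike were *Alad* (r = 0.915), *Gm26782* (r = 0.913), *Ndrg2* (r = 0.91), *Entpd8* (r = 0.908) and *4930480K23Rik* (r = 0.908). *Alad*, an enzyme of heme synthesis, went from a mean of 154.7 to 170.4 CPM at ZT8 and from 259.3 to 120.3 CPM at ZT20. These correlations describe how levels varied together over the livers and were not tested.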

How the data were processed

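RNA of 12 mouse livers was measured, with n = 3 for each genotype at ZT8 and ZT20. Genotype, time and replicate number were taken from the labels, which do not name the animal of each library, so that p-values measure the spread between these samples. Per the labels and the study's methods, the authors aligned poly(A) reads of at most 75 bases with TopHat (mm10). Uniquely aligned reads were then assigned to symbols by HTSeq-count, with union mode, no strand and a quality of at least 10. The deposited values are raw counts, which are whole numbers for 38926 symbols and 5 summary lines. Reads on no gene made up 8.5 to 9.95% and ambiguous reads 3.08 to 3.62% of counted, unassigned and ambiguous reads together. The authors used DESeq2 1.6.3 for their own tests, whose results were not used here.

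Genes of low count were removed with filterByExpr. A quasi-likelihood model with 4 group means over all 12 samples was fitted in edgeR 4.0.16 (R 4.3.3, TMM, robust glmQLFit), with Benjamini-Hochberg adjustment over the 14488 genes of each contrast and a threshold of 0.05. Standard errors are the log2 fold change divided by the square root of the F statistic. The fit was tested on simulated data. Alternatives were size factors or total counts in place of TMM, DESeq2 1.42.0, other filters, a fit on the 6 samples of a comparison, a block for the replicate number, a threshold of 0.01, each sample left out in turn and, chosen after seeing the data, both wild-type ZT8 samples of high *Saa1* left out. Library totals ranged from 17641809 to 26060192 counted reads. The CPM worth of 3 counts served as a guide to low levels in each library, and no value was changed by it.

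Within each group, libraries differed beyond counting noise (chi-square divided by its degrees of freedom, 7.53 to 141), and all 12 were kept as separate samples. Gene positions and lengths came from GENCODE M21 and upstream sequences from RefSeq, both on GRCm38. Named genes were the members, the list genes that passed (at most 4 per list and contrast) and the 5 genes most like *Adh1*. Of the folate list, 1 gene is not reported here. The members and lists were chosen with earlier results of these data known.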

Additional observations from a re-analysis of the deposited data

Results flagged for a closer look

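The effect of the loss of REV-ERBα differed between ZT8 and ZT20 for the following genes, each by the contrast of the genotype effects in edgeR with Benjamini-Hochberg adjustment, where a positive value means a more positive effect at ZT8. *Adh1* differed by -0.65 on the log2 scale (adjusted p = 0.012), with all 3 *Rev-erbα-/-* livers below wild-type at ZT8 and all 3 above at ZT20. *Aldh1b1* differed by 0.81 (adjusted p = 0.000996), with all 3 *Rev-erbα-/-* livers below wild-type at ZT20 only. Of the genes outside the members, *Dhrs9* differed by 1.85 (adjusted p = 0.016) and *Shmt1* by 0.66 (adjusted p = 0.00882). *Arntl*, used as a check of the genotype, differed by 5.20 (adjusted p = 3.93e-11). With 3 samples in each group, single outlying values within a group were not tested.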

How the results depend on the processing

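Over the 5 comparisons, 983 of the members' values kept their direction and their side of the threshold under the alternatives, 12 came to pass, 9 no longer passed, and 36 changed sign, all of them values that did not pass. *Aldh1b1* passed in all alternatives for the genotype at ZT20, the difference between the effects and the time effect in *Rev-erbα-/-*, and *Adh1* for its time effect in *Rev-erbα-/-*. Which single libraries decide a call is given with the genes.

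The number of members passing at ZT8 was 1 (*Adh1*) with total counts (-0.345, adjusted p = 0.0469) and with DESeq2 (adjusted p = 0.00354), and 0 to 1 when single samples were left out, with *Adh1* passing without *Rev-erbα-/-* ZT20 replicate 1 (adjusted p = 0.0434) or 3 (0.0461). At ZT20 it was 2 with DESeq2 (*Adh1* in addition, adjusted p = 0.00402) and 1 to 2 with samples left out, *Adh1* passing without *Rev-erbα-/-* ZT20 replicate 1 (0.418, adjusted p = 0.0365). For the difference it was 1 at a threshold of 0.01. For time in wild-type it was 1 with total counts and at 0.01, 4 with DESeq2, 0 without both samples of high *Saa1*, and 1 to 5 with samples left out.

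Over all genes, 769 passed at ZT8 with only the 6 samples compared. At a threshold of 0.01, 472 passed at ZT8, 223 at ZT20, 357 for the difference, 2343 for time in wild-type and 1231 for time in *Rev-erbα-/-*. Without both samples of high *Saa1*, 346 passed at ZT8, 493 for the difference and 1795 for time in wild-type. With single samples left out, the counts ranged from 542 to 1811 at ZT8, 239 to 656 at ZT20, 493 to 1260 for the difference, 2865 to 4195 for time in wild-type and 1566 to 2847 for time in *Rev-erbα-/-*.

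Of the values that changed sign, total counts turned the difference of *Adh5* to -0.017, the wild-type time effect of *Adh4* to -0.062 and the *Rev-erbα-/-* time effect of *Adh7* to -0.032, and the absence of a filter turned the wild-type time effect of *Adh4* to -0.001. Without both samples of high *Saa1*, the effects at ZT8 were -0.039 for *Adh5*, -0.118 for *Aldh1a1*, -0.08 for *Aldh2* and -0.038 for *Aldh1l1*. The differences were then -0.072 for *Adh5*, -0.294 for *Aldh1a1*, -0.044 for *Aldh1a7* and -0.104 for *Aldh1l1*, and the wild-type time effects -0.293 for *Adh4* and -0.132 for *Aldh3a2*. The cause was not tested. With single samples left out, the effects at ZT8 ranged from -0.138 to 0.161 for *Adh4* and -0.008 to 0.177 for *Aldh2*, and those at ZT20 from -0.015 to 0.083 for *Adh5* and -0.009 to 0.197 for *Aldh1l1*. The differences ranged from -0.588 to 0.032 for *Aldh3a2*, -0.033 to 0.06 for *Adh5*, -0.083 to 0.264 for *Aldh1a1*, -0.073 to 0.259 for *Adh7* and -0.023 to 0.172 for *Aldh1a7*, and the time effects from -0.123 to 0.171 for *Adh4* in wild-type and -0.171 to 0.162 for *Adh7* in *Rev-erbα-/-*.

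With the replicate number as a block, 1210 genes passed at ZT8, 479 at ZT20, 831 for the difference, 3889 for time in wild-type and 2399 for time in *Rev-erbα-/-*, and no member's call changed, while the effect of *Adh4* at ZT8 turned from -0.009 to 0.001. The numbers do not pair the samples. The deviations of same-numbered samples from their group means correlated at -0.0144 on average over 18 pairs, none above 0.1.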
